A study of Chlorocebus sabaeus with 10 samples.

Results

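The mitochondrially encoded transcripts were the 37 transcripts that the deposited count table places on chromosome M, out of 28078 transcripts in all. They were 13 protein coding transcripts, 2 rRNAs and 22 tRNAs. The table holds liver biopsies of 10 female vervet monkeys (Chlorocebus sabaeus), a non-human primate used as a model of metabolic disease, with 1 RNA-Seq library per animal. All animals had been kept on chow, and for 6 weeks 5 of them were fed a high fructose (HFr) diet and 5 stayed on chow. No other treatment, genotype or age was given in the labels, and the animals had been assigned to balance age and body weight. The paper nevertheless lists a higher mean age on HFr than on chow, a difference that did not pass its test. The question here was what these transcripts made up of each library, how constant their proportions to each other were, and whether either differed between the diets.

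The mitochondrial genome is a small circle that encodes core subunits of the respiratory chain and ATP synthase, together with the rRNAs and tRNAs needed to translate them inside the organelle. Both strands are transcribed into long precursors, which are cut largely at the tRNAs that lie between the other genes, and most of the mRNAs then receive a short poly(A) tail. Nearly all other mitochondrial proteins, among them the polymerase, the RNA processing enzymes and most respiratory chain subunits, come from nuclear genes. Hepatocytes are rich in mitochondria, where fatty acid oxidation, parts of gluconeogenesis and the urea cycle take place.

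On the assembly ChlSab1.1 the 37 transcripts spanned positions 583 to 16009 of chromosome M. On the plus strand lay 29 of them and on the minus strand 8, which were ND6 and 7 tRNAs. The table gives a symbol to 12 of the 37. The transcript of ENSCSAG00000000021 (positions 8363 to 8563), which has no symbol there, is called ATP8 in what follows, because RefSeq (assembly mChlSab1.0.hap1) lists ATP8 between COX2 and ATP6 and because all 37 starts and lengths were the same in both. The rRNAs, also without symbols, are called the shorter rRNA (ENSCSAG00000000002, positions 657 to 1604) and the longer rRNA (ENSCSAG00000000004, positions 1674 to 3225).

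The map was compact. The listed length was not a multiple of 3 for 6 of the 13 protein coding transcripts, namely ND1, MT-ND2, COX3, ND3, MT-ND4 and CYTB, and all 6 were followed by a plus strand tRNA with no base between. None of the 6 plus strand coding transcripts with a length that was a multiple of 3 was followed in this way. In mammals some mitochondrial stop codons are completed only by the poly(A) tail. Neighboring coding transcripts overlapped in 3 places, by 40 bases for ATP8 (8363 to 8563) and ATP6 (8524 to 9204), by 1 base for ATP6 and COX3 (9204 to 9987), and by 7 bases for ND4L (10461 to 10757) and MT-ND4 (10751 to 12128). Both transcripts of each overlap lay on the plus strand, so strand could not separate the reads they shared. Whether the counting used strand was not stated, so reads from antisense RNA could not be told apart. Reads shared with nuclear copies of mitochondrial DNA were also uncertain.

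The libraries held between 2977282 and 4992505 estimated counts, of which mitochondrial transcripts took 34.7% to 73.6%. The mean was 55.5% ± 11.8 (SD, n = 5) on HFr and 55.4% ± 16.5 (SD, n = 5) on chow (two-sided exact permutation test, p = 0.992), but the difference of 0.0714 percentage points changed sign when any of 5 animals was left out and lay between -5.10 and 4.61 points over all 10 omissions. In biopsies, fewer cells of a type and less RNA per cell cannot be told apart, so a percent of counts is not an amount per cell. Mitochondrial counts ranged 2.88-fold, from 1077166 in chow replicate 2 to 3104729 in HFr replicate 4. All 8 hepatocyte markers were detected, with a summed level of 45508 to 69133 CPM (counts scaled to a common library size with TMM) on HFr and 38891 to 76053 on chow. Of 9 skeletal muscle markers, 8 were in the count table. CKM, MB, MYH2 and MYH7 were at 0 in all animals, and the sum of the 8 stayed between 1.09 and 5.21 CPM. Of 6 red blood cell markers, 4 were in the count table and 1 passed the filter on low counts. The 4 summed to 60.7 to 343 CPM. Across the 10 animals this sum had a Pearson r of 0.753 with the mitochondrial percent (permutation p = 0.0174, adjusted over 8 marker lists 0.139) and a Spearman rho of 0.794 (permutation p = 0.00912, adjusted 0.0730), with r at 0.583 on HFr, 0.882 on chow and 0.571 without chow replicate 2 and HFr replicate 2, the animals farthest from the median percent (permutation p = 0.137). The hepatocyte sum had an r of -0.629 with that percent (permutation p = 0.0538, adjusted 0.182) and a rho of -0.624 (permutation p = 0.0614, adjusted 0.246), with r at -0.810 on HFr, -0.550 on chow and -0.637 without the same animals. The sum of endothelial markers had an r of 0.600 (permutation p = 0.0681, adjusted 0.182) and a rho of 0.442 (permutation p = 0.204, adjusted 0.272). Its r was 0.360 on HFr, 0.800 on chow and 0.367 without the same animals. For macrophages r was 0.487, for stellate cells and fibroblasts 0.400 and for skeletal muscle 0.300. It was -0.0583 for lymphocytes and -0.372 for cholangiocytes. None of the 8 relations passed after adjustment, and the part of cell types in the results was not tested.

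COX1, the catalytic subunit of cytochrome c oxidase, was the most abundant transcript of every library and alone took 10.3% to 23.8% of all counts. Of the 10 most abundant transcripts, 8 or 9 were mitochondrial in each animal, whereas no nuclear transcript passed 5.91%. The 22 tRNAs, of 59 to 75 bases, were the opposite case. Of them 18 were listed at 0 in all animals, and the other 4 gathered 12 counts over the 10 libraries, with at most 2 for 1 tRNA in 1 animal. A count of 0 allowed a share of up to 9.66e-05% to 0.000279% of the mitochondrial sum, depending on the library. This bound holds only if reads can be assigned to transcripts this short. All 22 tRNAs were shorter than a single read in the paper's sequencing, and the effect on counting was not tested. The libraries were made from poly(A) RNA, so these values describe what was captured and not how much tRNA, rRNA or mRNA the tissue held.

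In what follows, a share is the percent of all mitochondrial counts of 1 animal. The 13 protein coding transcripts made up 98.5% to 99.0% of the mitochondrial sum and the 2 rRNAs 0.959% to 1.54%. By complex, the 3 subunits of complex IV took 58.1% to 62.4%, the 7 subunits of complex I 17.7% to 19.5%, CYTB of complex III 10.3% to 13.1%, and the 2 subunits of ATP synthase (complex V) 6.74% to 8.58%. The minus strand carried 0.0363% to 0.110%, nearly all of it from ND6. The ranges of the complexes did not overlap, so their order was the same in all 10 animals despite the difference in the size of the sum. Some single members varied more, with COX1 between 25.5% and 33.3% and ND3 over an 8.40-fold range, whereas COX2 ranged only 1.12-fold.

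**Figure D1:**
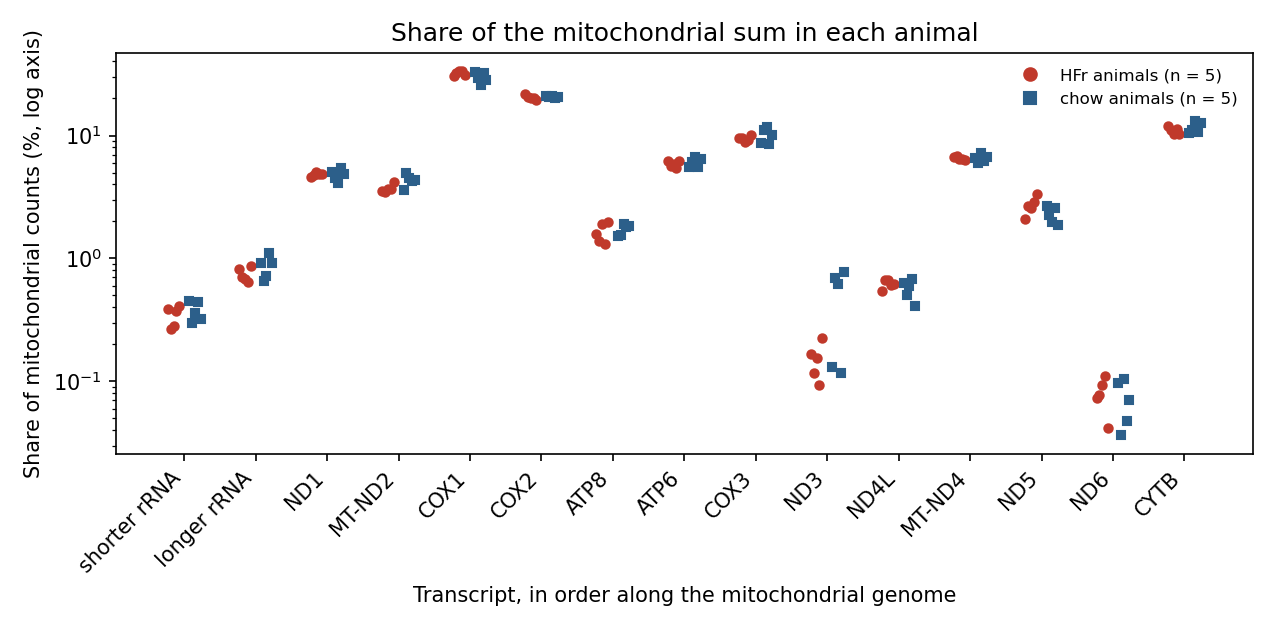
Share of the mitochondrial counts (%, log axis) of each of the 15 tested mitochondrial transcripts, in map order, with 1 point per animal (circles, 5 HFr animals; squares, 5 chow animals). Most transcripts form tight groups of points, whereas ND3 runs from 0.0930% to 0.781% and ND6 from 0.0363% to 0.110%.

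Levels of different transcripts were compared per length, as counts per kilobase relative to COX2 in the same animal, which had the highest level of all. The full listed length was used, with no correction for fragment length. Levels of short transcripts, such as ATP8 (201 bases) and ND4L (297 bases), are therefore less certain. Reads in the overlaps of ATP8 with ATP6 and of ND4L with MT-ND4 could not be told apart either. COX1 had a level per length of 67.0% ± 6.38 of COX2 (SD, n = 10), COX3 of 41.4% ± 4.44 and CYTB of 33.0% ± 2.36. Each of COX2, COX1 and COX3 stood above the next transcript in all 10 animals, and CYTB stood above ATP6 in 9. ATP6 at 29.3% ± 2.11 and ATP8 at 27.9% ± 4.33 (n = 10) were neighbors whose order did not hold, since ATP6 was higher in only 7 animals. ND1 (16.8% ± 1.56), MT-ND4 (15.8% ± 0.791) and MT-ND2 (12.9% ± 1.64) formed the next group, in which ND1 stood above MT-ND4 in 8 animals and MT-ND4 above MT-ND2 in 9. The lower end of the order held further complex I subunits, with ND4L at 6.69% ± 1.04, ND5 at 4.62% ± 0.959 and ND3 at 3.02% ± 2.64. ND5 was above ND3 in 7 animals and ND3 above the longer rRNA in 5, so the place of ND3 in the order was not fixed. The longer rRNA (1.73% ± 0.330) was above the shorter rRNA (1.27% ± 0.232) in all 10 animals, and ND6 came last at 0.480% ± 0.168, 208-fold below COX2. This order is one of RNA captured through poly(A). How fully each transcript, ND6 among them, was captured was not tested.

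**Figure D2:**
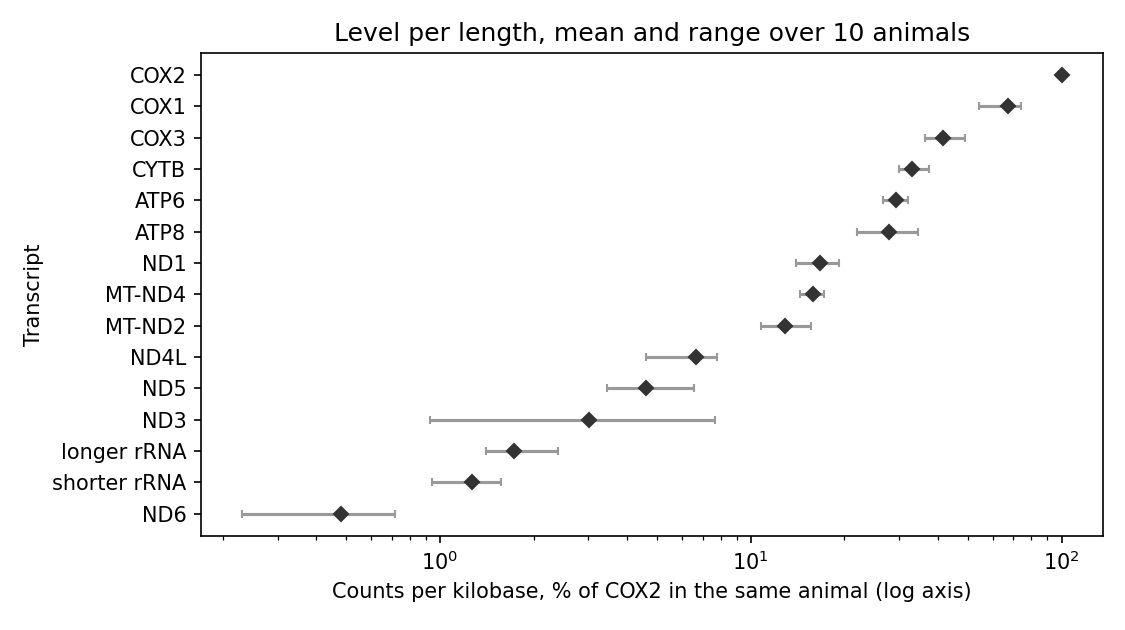
Counts per kilobase of each tested mitochondrial transcript as a percent of COX2 in the same animal (log axis), with the mean (diamond) and the range (bar) over 10 animals. COX2, COX1 and COX3 lead the order, and the bar of ND3 spans those of ND5 and the longer rRNA.

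Complex IV passes electrons from cytochrome c to oxygen. COX2 (positions 7582 to 8265), which takes up those electrons, had shares of 21.7%, 20.6%, 20.004%, 20.1% and 19.3% in HFr replicates 1 to 5 and of 21.0%, 20.7%, 20.9%, 20.3% and 20.5% in chow replicates 1 to 5, an order kept for all transcripts. It was the steadiest mitochondrial transcript, with a coefficient of variation (CV) of 3.10% over the 10 animals. COX1 (positions 5899 to 7437) had shares of 30.3%, 32.2%, 33.3%, 33.2% and 31.2% on HFr and of 32.6%, 29.6%, 25.5%, 32.3% and 28.3% on chow. The 3 lowest shares of COX1 belonged to chow replicates 3, 5 and 2, but the 2 other chow animals lay among the HFr animals. The mean share of COX1 was 32.05% ± 1.29 on HFr and 29.7% ± 2.94 on chow (n = 5 each, two-sided exact permutation test, p = 0.135). COX3 (positions 9204 to 9987), a core subunit that binds no redox metal, had shares of 9.46%, 9.49%, 8.89%, 9.17% and 10.2% on HFr and of 8.72%, 11.1%, 11.7%, 8.54% and 10.04% on chow. Its highest and its lowest share were both in chow animals, and its mean of 9.44% ± 0.484 on HFr did not differ from 10.02% ± 1.40 on chow beyond the spread (n = 5 each, exact permutation p = 0.405). The share of COX2 differed by -0.306 percentage points between the diets (exact permutation p = 0.484).

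CYTB (positions 14732 to 15872), the subunit of complex III that holds its quinone sites, had shares of 11.9%, 11.2%, 10.3%, 11.2% and 10.3% on HFr and of 10.5%, 11.1%, 13.1%, 10.7% and 12.5% on chow. The 2 highest values were in chow animals, and the diets overlapped, with a difference of -0.607 percentage points (exact permutation p = 0.333). ATP6, the subunit of ATP synthase through which protons pass the membrane, had shares of 6.21%, 5.66%, 5.85%, 5.44% and 6.19% on HFr and of 5.55%, 6.13%, 6.68%, 5.54% and 6.48% on chow. ATP8, a small membrane subunit of the same enzyme, had shares of 1.59%, 1.39%, 1.89%, 1.30% and 1.97% on HFr and of 1.53%, 1.55%, 1.90%, 1.80% and 1.84% on chow. Neither subunit separated the diets, with differences of -0.206 percentage points for ATP6 (exact permutation p = 0.476) and -0.0974 for ATP8 (exact permutation p = 0.532).

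Complex I oxidizes NADH and pumps protons, and 7 of its membrane subunits are mitochondrially encoded. ND1 (positions 3303 to 4258), which lies at the quinone site, had shares of 4.57%, 4.73%, 5.09%, 4.82% and 4.82% on HFr and of 5.08%, 4.47%, 4.08%, 5.43% and 4.83% on chow. MT-ND4, one of the proton pumping subunits, had shares of 6.64%, 6.76%, 6.45%, 6.42% and 6.30% on HFr and of 6.57%, 5.98%, 7.26%, 6.16% and 6.72% on chow. In both the HFr animals fell inside the range of the chow animals, and the differences were 0.0287 percentage points for ND1 (exact permutation p = 0.881) and -0.0241 for MT-ND4 (exact permutation p = 0.929). ND5 (positions 12328 to 14136), the largest of the proton pumping subunits, had shares of 2.11%, 2.66%, 2.59%, 2.87% and 3.37% on HFr and of 2.66%, 2.25%, 1.97%, 2.56% and 1.87% on chow. ND4L, a small subunit, had shares of 0.548%, 0.663%, 0.666%, 0.608% and 0.621% on HFr and of 0.633%, 0.502%, 0.602%, 0.685% and 0.410% on chow. Chow replicate 5 had the lowest share of both, and the differences were 0.459 percentage points for ND5 (exact permutation p = 0.103) and 0.0546 for ND4L (exact permutation p = 0.365). Over the 10 omissions, the difference of ND5 ran from 0.297 points without HFr replicate 5 to 0.611 without HFr replicate 1 (exact permutation p from 0.0476 to 0.222).

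ND6 (positions 14137 to 14658), the only coding transcript of the minus strand, had shares of 0.0726%, 0.0777%, 0.0933%, 0.110% and 0.0420% on HFr and of 0.0963%, 0.0363%, 0.105%, 0.0475% and 0.0709% on chow. High and low animals occurred on both diets, with a 3.03-fold range overall and 391 to 3414 counts behind each value (exact permutation p = 0.643 between the diets). The longer rRNA had shares of 0.818%, 0.703%, 0.678%, 0.641% and 0.869% on HFr and of 0.924%, 0.659%, 0.721%, 1.104% and 0.913% on chow. The shorter rRNA had shares of 0.390%, 0.268%, 0.284%, 0.373% and 0.413% on HFr and of 0.451%, 0.299%, 0.363%, 0.440% and 0.324% on chow. Both rRNAs were highest in a chow animal and overlapped between the diets, with differences of -0.123 percentage points for the longer (exact permutation p = 0.198) and -0.0296 for the shorter (exact permutation p = 0.484).

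ND3 (ENSCSAG00000000025, positions 10056 to 10395 on the plus strand) stood apart from the other 14. It is a small membrane subunit of complex I with a flexible loop near the quinone site. Its shares were 0.167%, 0.117%, 0.156%, 0.0930% and 0.225% on HFr and 0.131%, 0.688%, 0.616%, 0.118% and 0.781% on chow. Thus chow replicates 2, 3 and 5 lay at 0.616% or more, and the other 7 animals, the remaining 2 chow animals among them, at 0.225% or less. The range was 8.40-fold and the CV 87.8%, with 1517 to 15966 counts behind each value, so counting error was small beside these differences. The mean share was 0.151% ± 0.0506 on HFr and 0.467% ± 0.318 on chow, a difference of -0.315 percentage points (n = 5 each, two-sided exact permutation test, p = 0.119). Over the 10 omissions of a single animal the difference ran from -0.402 points without chow replicate 4 to -0.237 without chow replicate 5 (exact permutation p from 0.0317 to 0.159), and the p was 0.0317 without chow replicate 1 or chow replicate 4.

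MT-ND2 (ENSCSAG00000000010, positions 4465 to 5506), another proton pumping subunit of complex I, was the only member whose share differed between the diets at an unadjusted exact p under 0.05. Its shares were 3.57%, 3.50%, 3.66%, 3.68% and 4.16% on HFr and 3.59%, 4.91%, 4.53%, 4.29% and 4.34% on chow. All HFr animals were below 4 of the chow animals, and chow replicate 1 lay within the HFr range. The mean share was 3.71% ± 0.262 on HFr and 4.33% ± 0.479 on chow, a difference of -0.619 percentage points (n = 5 each, two-sided exact permutation test, p = 0.0317). The p rose to between 0.0556 and 0.0714 when any 1 of HFr replicates 1, 2, 3 and 4 or of chow replicates 2, 3, 4 and 5 was left out, was 0.0317 without HFr replicate 5 and 0.0159 without chow replicate 1. The same test on shares of the nuclear sum gave an exact p under 0.05 for 275 of 7933 nuclear transcripts, or 3.47%, so a single call among the 15 members was near that background. The shares of a library sum to 100%, so the 15 tests were not independent of each other. Chow replicates 2, 3 and 5, which had the 3 highest shares of ND3, also had the 3 highest of MT-ND2 and the 3 lowest of COX1.

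**Figure D3:**
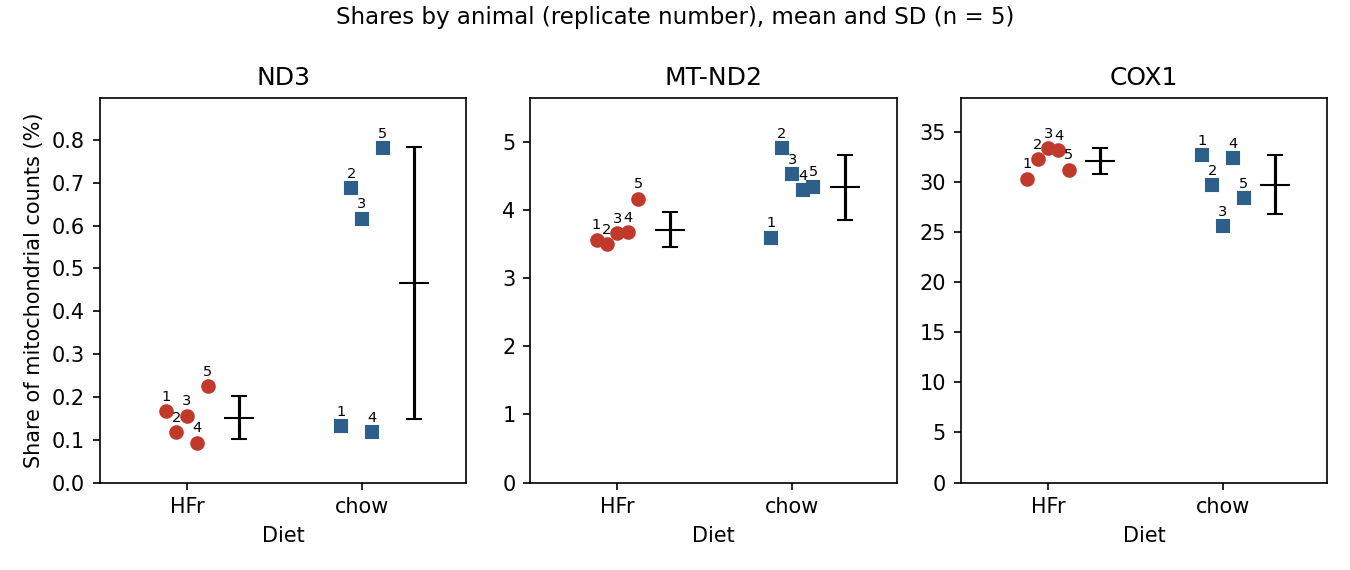
Share of the mitochondrial counts (%, axes from 0) of ND3, MT-ND2 and COX1 in each animal, numbered by replicate, with the mean and SD of each diet (n = 5). Chow replicates 2, 3 and 5 are highest for ND3 at 0.616% to 0.781% and lowest for COX1 at 25.5% to 29.6%.

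None of the complexes or classes passed the test between the diets. Complex IV had a share of 61.8% ± 0.718 on HFr and 60.4% ± 1.78 on chow (n = 5 each, two-sided exact permutation test, p = 0.159), and 1.95 points of difference without chow replicate 1 (exact permutation p = 0.0476). Complex I had 18.6% ± 0.665 on HFr and 19.0% ± 0.222 on chow (n = 5 each, exact permutation p = 0.254). Without HFr replicate 5, the animal with the highest complex I share, all HFr animals were below all chow animals and the difference was -0.643 points (exact permutation p = 0.00794, the smallest that the 126 assignments of 9 animals allow), so this comparison turned on 1 animal. Complex V (exact permutation p = 0.444), the rRNAs together (exact permutation p = 0.238) and the minus strand (exact permutation p = 0.643) differed by less than the spread between animals.

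The proportions of members to each other were described by the log2 ratio of their counts in each animal. Over the 105 pairs the SD of this ratio across the 10 animals had a median of 0.28, and it was under 0.2 for 23 pairs. The tightest pair was COX2 with MT-ND4, whose log2 ratio was 1.65 with an SD of 0.073, followed by ND1 with COX1 (SD 0.076), MT-ND4 with CYTB (SD 0.085) and ATP6 with CYTB (SD 0.090). Being neighbors on the map did not go with one SD. The overlapping ATP6 and COX3 had an SD of 0.090, ATP8 and ATP6 of 0.168, ND4L and MT-ND4 of 0.244, and the rRNAs, with a tRNA between them, of 0.213. For the overlapping pairs, the ratio may also depend on how shared reads were assigned, which was not tested. All 14 pairs with ND3 had an SD of 1.04 to 1.44, and no other pair of ND6 was below 0.518. Leaving out both transcripts, the remaining 78 pairs had an SD of at most 0.370. The log2 ratio of its upstream coding neighbor COX3 to ND3 ran from 3.68 to 6.62, and that of ND3 to its downstream coding neighbor ND4L from -2.71 to 0.93.

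**Figure D4:**
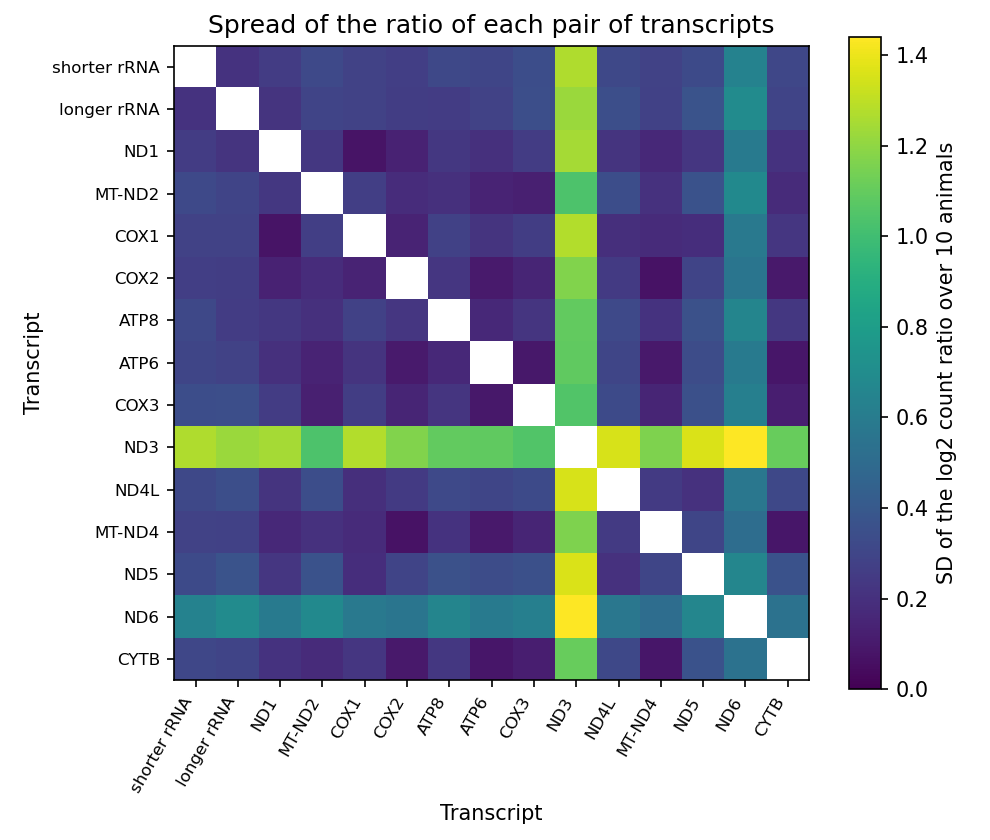
SD over 10 animals of the log2 ratio of counts for each of the 105 pairs of tested mitochondrial transcripts, in map order on both axes, with the color scale from 0. The row and column of ND3 are at 1.04 or more, those of ND6 are the next highest, and the other 78 pairs are at most 0.370.

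The spread between animals was larger than counting error for every tested member. The SD within the diets was 13.9 to 67.5 times the SD that counting alone would give, and the Wilson 95% interval of a share was at most ± 0.0862 percentage points wide, an interval that covers counting error only. The share of the mitochondrial sum had a CV under 10% for 6 members and between 10% and 20% for 7, with a median of 12.2% over the 15. For comparison, the share of the nuclear sum had a median CV of 28.6% over the 7933 tested nuclear transcripts and of 24.3% over the 117 with at least as many counts as the least abundant tested member (mean 1573), of which 3 had a CV below 12.2%. The mitochondrial sum was dominated by COX1 and COX2, and the nuclear sum was divided over many more transcripts, so both CVs are descriptions and were not tested against each other.

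Across the 10 animals, the make-up of the mitochondrial sum was also set against the percent of all counts that were mitochondrial, in 3 relations. The rRNA share had a Pearson r of 0.473 (permutation p = 0.168, adjusted 0.503) and a Spearman rho of 0.479 (permutation p = 0.167, adjusted 0.502). Within the diets r was -0.280 on HFr and 0.881 on chow (n = 5 each, not tested), and without chow replicate 2 and HFr replicate 2 it was 0.193. For complex I, r was -0.120 (permutation p = 0.758, adjusted 0.791) and rho 0.103 (permutation p = 0.785, adjusted 0.973), with r at -0.444 on HFr, 0.441 on chow and -0.271 without those animals. For complex IV, r was 0.0914 (permutation p = 0.791, adjusted 0.791) and rho -0.0182 (permutation p = 0.973, adjusted 0.973), with r at 0.389 on HFr, 0.0276 on chow and 0.359 without them. No pooled relation passed the test, and those of the rRNAs and complex I had opposite signs on the 2 diets.

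The diets were next compared on the scale of the whole library, where TMM factors, set mostly by the many nuclear transcripts, made a mitochondrial fold change relative to nuclear transcripts. All 13 protein coding transcripts and both rRNAs passed the filter on low counts, and no tRNA did. Of the 15, 2 were higher and 13 lower on HFr by fitted value, although ND1, COX1, COX2, ND4L and MT-ND4 were higher in limma on the authors' normalized values. They had a median log2 fold change (HFr over chow) of -0.17, beside -0.00 over all 7948 tested transcripts, of which 3959 were higher and 3989 lower. In edgeR's quasi-likelihood test 1 of the 15 had an unadjusted p under 0.05 and 0 an adjusted p under 0.05 (Benjamini-Hochberg). Over all tested transcripts 341, or 4.29%, had an unadjusted p under 0.05, and 0, or 0%, passed after adjustment, with 2 by DESeq2. The 341 calls were 164 higher and 177 lower, a split that was 229 and 111 in limma on the authors' normalized values and 214 and 114 in the study's equal-variance test.

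The 1 member was ND3, a member whose share did not pass its own test. Its level was 871 ± 416 CPM on HFr and 2639 ± 2663 CPM on chow (SD, n = 5 each). The single values were 1172, 338, 1381, 637 and 828 CPM on HFr and 616, 1611, 2252, 1427 and 7287 CPM on chow. Chow replicate 5 was the highest by a wide margin, chow replicate 1 was below all HFr animals except HFr replicate 2, and the diets overlapped. The log2 fold change was -1.60 (standard error 0.56) with an edgeR p of 0.0127 and an adjusted p of 0.9996, and the adjusted p lay between 0.768 and 0.99999 over all alternatives. Leaving out chow replicate 5 gave a log2 fold change of -0.76 and an edgeR p of 0.0880, and the study's equal-variance test on the authors' normalized values gave an unadjusted p of 0.190. In the other alternatives, 17 of 19, the unadjusted p of ND3 stayed under 0.05. The call of ND3 thus depended on chow replicate 5 and on the choice of test.

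The other 14 members had log2 fold changes between -0.51 (longer rRNA) and 0.20 (ND6), with edgeR p-values from 0.334 to 0.955. Their values were -0.30 for the shorter rRNA, -0.17 for ND1, -0.34 for MT-ND2, -0.04 for COX1, -0.14 for COX2, -0.24 for ATP8, -0.16 for ATP6, -0.17 for COX3, -0.03 for ND4L, -0.13 for MT-ND4, 0.08 for ND5 and -0.20 for CYTB. Standard errors of the 15 members lay between 0.46 and 0.56, beside a median of 0.25 over all tested transcripts, so differences of the size seen for these 14 were not detectable at this spread. For these 14, apart from the longer rRNA, the sign of the fold change turned when at least 1 of the animals was left out.

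**Figure D5:**
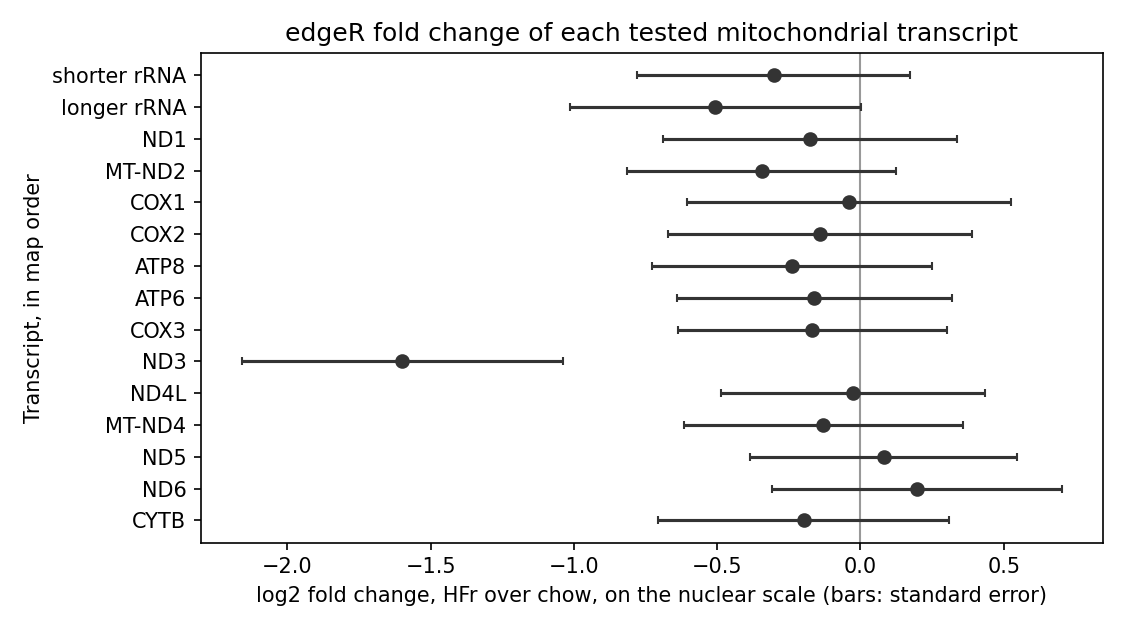
Log2 fold change of each tested mitochondrial transcript, HFr over chow, from edgeR, with its standard error as the bar and a line at 0. ND3 lies at -1.60 and all others between -0.51 and 0.20.

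Nuclear genes that act on the same system were taken as 2 lists. Of 38 genes of mitochondrial genome expression, such as the polymerase, RNA processing enzymes and translation factors, 36 were in the table and 27 tested. Of these 2, or 7.41%, had an unadjusted p under 0.05, both lower on HFr, beside 4.29% of all tested transcripts, a count near that background. After adjustment 0 passed in edgeR (adjusted p = 0.9996 for the smallest p), and the median log2 fold change was 0.02. FASTKD2, an RNA binding protein needed for assembly of the mitochondrial ribosome, was at 20.9 ± 4.25 CPM on HFr and 30.1 ± 6.36 CPM on chow (log2 fold change -0.53, standard error 0.20) with an edgeR p of 0.0182. GFM1, a mitochondrial translation elongation factor, had a log2 fold change of -0.38 (standard error 0.17) with an edgeR p of 0.0372. TFB1M, which methylates the small mitochondrial rRNA, was next at -0.43 (standard error 0.26) with an edgeR p of 0.114. Without chow replicate 1 no member of the list had a p under 0.05.

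Of 58 nuclear genes for respiratory chain and ATP synthase subunits, 52 were tested. Of these 2, or 3.85%, had an unadjusted p under 0.05, both higher on HFr, beside 4.29% of all tested transcripts, so the list held no more than that background. After adjustment 0 passed in edgeR. By fitted value 45 were higher and 7 lower, with a median log2 fold change of 0.17. Over all tested transcripts 3959 were higher and 3989 lower with a median of -0.00, and the median of the mitochondrial members was -0.17. None of these medians or sign counts was tested. Members of this list, like the mitochondrial members, were measured in the same animals, so their signs are not separate observations. ATP5F1D, the delta subunit of ATP synthase, was at 41.3 ± 9.83 CPM on HFr and 30.8 ± 3.22 CPM on chow (log2 fold change 0.43, standard error 0.19) with an edgeR p of 0.0364. NDUFA13, an accessory subunit of complex I, had a log2 fold change of 0.46 (standard error 0.21) with an edgeR p of 0.0458. NDUFS6, another accessory subunit of complex I, was next at 0.62 (standard error 0.33) with an edgeR p of 0.0837. Without HFr replicate 2, HFr replicate 4 or chow replicate 1 no member of this list had a p under 0.05.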

How the data were processed

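Liver RNA of 10 vervet monkeys, 5 on HFr and 5 on chow, was sequenced from poly(A)-selected, stranded mRNA libraries. The authors aligned paired-end reads to ChlSab1.1 and used the expectation-maximization step of Partek Flow to deposit estimated counts per Ensembl transcript, which were not normalized. The submitters' processing notes name CASAVA 1.8, FastQC, STAR 2.5.3a and Partek. A second table deposited by the authors holds signal values scaled with TMM, used here only for limma and the study's equal-variance test. Of the values of the count table, 97.7% were whole numbers, and all mitochondrial values were. The number of sample columns left unused was 0.

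Libraries held 2977282 to 4992505 counts. After rounding, transcripts were kept by filterByExpr (at least 10 counts, total at least 15), and HFr was set against chow in edgeR (quasi-likelihood, TMM, no other term), adjusted by Benjamini-Hochberg over all 7948 tested transcripts at 0.05. CPM refer to TMM-scaled library sizes. Shares of the mitochondrial sum were tested by two-sided exact permutation, with all 252 assignments and a smallest p of 0.00794, and were not adjusted over the members. Permutation p-values of correlations used 100000 resamples, adjusted over the 3 relations of the make-up and over the 8 of the marker lists, which were added after the values were seen. Intervals cover counting error only, and with 1 library per animal the p-values measure the spread between animals. R 4.3.3 was used with edgeR 4.0.16, limma 3.58.1 and DESeq2 1.42.0, and Python with SciPy 1.17.1, and the procedure was tested on simulated data. Values in every animal were given for the members that passed the filter, and of each nuclear list the 3 genes with the smallest unadjusted p were named. The members, lists and alternatives were chosen with earlier results of these data known. Positions are those of the count table, counted from 1 with the listed stop excluded. Alternatives were other normalizations and filters, DESeq2, limma (log2 of the normalized value + 1), the study's test, other forms of the shares, the replicate number as a block, and leaving out each animal. Sequences of these transcripts were not analysed here.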

Additional observations from a re-analysis of the deposited data

Results flagged for a closer look

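The share of MT-ND2 in HFr replicate 5, 4.16% of the mitochondrial sum, stood apart from the other HFr animals, of which the nearest was at 3.68% and the lowest at 3.50%. Its gap to the nearest animal was 0.731 of the range of the group, above Dixon's 95% critical value of 0.71 for 5 samples. This was 1 of 42 groups of values examined, and chance gives about 1 in 20. Without this animal the diets differed by -0.732 percentage points (exact permutation p = 0.0317).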

How the results depend on the processing

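No adjusted call of a mitochondrial transcript appeared under any of the 19 alternatives to the edgeR fit. Over all transcripts, 124 had an unadjusted p under 0.05 with library size alone as the scale and 756 without the filter on low counts. After adjustment 2 passed in DESeq2 and 1 with library size alone. The study's equal-variance test left 0 mitochondrial transcripts under an unadjusted p of 0.05. In the list of mitochondrial genome expression the count was 1 in limma, 0 with library size alone and 1 without the filter. In the list of respiratory chain subunits it was 0 with library size alone. The log2 fold change turned sign in limma for ND1 (0.052), COX1 (0.15), COX2 (0.015), ND4L (0.19) and MT-ND4 (0.035), with library size alone for COX1 (0.10) and ND4L (0.12), and in the study's test for ND4L (0.0093). The difference in mitochondrial percent became -14.7 when expressed per 100 nuclear counts and -0.011 as a log2 ratio to nuclear counts. The relation of complex IV to the mitochondrial percent had an r of -0.44 with the log2 ratio to COX1. The cause of these changes was not tested.

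Replicate numbers did not pair the animals. The correlation of same-numbered animals lay between -0.29 and 0.10, and 0 of the 5 numbers correlated best with its own partner. With the replicate number as a block, 0 mitochondrial shares had an exact p under 0.05 (MT-ND2 p = 0.0625, the smallest that 32 assignments allow), the list counts were 1 for genome expression and 1 for respiratory chain subunits, ND3 had a log2 fold change of -1.29 (edgeR p = 0.0359), and the sign turned for ND1 (0.012), COX1 (0.11), ND4L (0.15) and MT-ND4 (0.011).

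With 1 animal left out at a time, mitochondrial transcripts under an unadjusted p of 0.05 numbered 0 (without chow replicate 5) to 1, and shares with an exact p under 0.05 numbered 0 to 2. List members numbered 0 to 2 for genome expression and 0 to 3 for respiratory chain subunits. The mitochondrial percent differed by -5.10 to 4.61 points. The difference in share ran from -0.643 to -0.175 points for complex I, 0.911 to 1.95 for complex IV, -0.000835 to 0.0172 for the minus strand, -0.000856 to 0.0172 for ND6, -0.145 to 0.192 for ND1, -0.163 to 0.156 for MT-ND4, -0.340 to -0.0557 for ATP6, -0.182 to -0.0149 for ATP8, -0.881 to -0.239 for CYTB, -0.958 to -0.173 for COX3, 1.33 to 3.10 for COX1, 0.0154 to 0.0843 for ND4L, -0.174 to -0.0626 for the longer rRNA, -0.0486 to -0.0103 for the shorter rRNA and -0.644 to -0.0550 for COX2 (exact permutation p = 0.0476 without HFr replicate 1). The log2 fold change ran from -0.37 to 0.13 for ATP6, -0.54 to 0.13 for ATP8, -0.27 to 0.37 for COX1, -0.35 to 0.20 for COX2, -0.36 to 0.095 for COX3, -0.41 to 0.094 for CYTB, -0.55 to 0.011 for MT-ND2, -0.35 to 0.18 for MT-ND4, -0.41 to 0.26 for ND1, -1.85 to -0.76 for ND3, -0.28 to 0.51 for ND4L, -0.13 to 0.54 for ND5, -0.078 to 0.42 for ND6 and -0.54 to 0.17 for the shorter rRNA. The highest value of all of these except ND3 and ND6 came without chow replicate 4.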
